A study of Mus musculus with 20 samples.

Results

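The enhancers at the loci of the interferon-induced GTPases were 30 of the 11222 enhancers counted in mouse bone marrow-derived macrophages. They were taken by position, as the enhancers whose midpoint lay in 1 of 5 windows of the mm39 genome. The windows were chosen with earlier results of these data known, so that contrasts with all enhancers are descriptions. On chromosome 3 the window ran from 142100000 to 142500000 (Gbp2, Gbp3, Gbp5 and Gbp7) and held 2 enhancers. On chromosome 5 it ran from 105000000 to 105550000 (Gbp4, Gbp6 and Gbp8) and held 11. On chromosome 11 a first window from 48600000 to 49000000 (Irgm1 and Ifi47) held 12, and a second from 57950000 to 58250000 (Igtp and Irgm2) held 2. On chromosome 18 the window from 60350000 to 60700000 (Iigp1) held 3. The window names are used below as places and do not assign an enhancer to a gene, and overlap of the enhancers with promoters or exons was not analysed here.

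The cells were macrophages of C57BL/6 mice, differentiated from marrow with M-CSF, and transcription was read with nAnT-iCAGE, which sequences the capped 5′ ends of RNA without amplifying them. Macrophages received interferon gamma (IFN-γ) alone, IFN-γ and CpG together, or CpG alone for 3, 9 or 15 h, or were left unstimulated (0 h), with 2 libraries in each of the 10 groups. CpG is an oligodeoxynucleotide that activates Toll-like receptor 9. All groups share the genotype and the M-CSF culture, and a polarization with IL-4 and IL-10 that the protocols also describe is not tied to any group. The series calls the 2 libraries biological replicates without saying whether they came from separate mice, so that p-values measure the spread between these libraries. There were no unstimulated cells at 3, 9 or 15 h, so that a stimulus and time in culture cannot be told apart against unstimulated cells. Macrophage marker genes were not analysed here, since the counts are of enhancers. A library had between 12776280 and 13855472 tags in all and between 12879 and 29794 in enhancers. Levels are given as tags or as RPM, the tag count scaled by the total of its library.

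The guanylate-binding proteins (Gbp) are large GTPases of the dynamin superfamily, and the immunity-related GTPases (Irg) are a smaller-sized family that mice use in defence within the cell. Effectors such as Iigp1 and the Gbp proteins load onto the membranes of vacuoles that hold Toxoplasma or bacteria and help to disrupt them. Irgm1, Irgm2 and Igtp are regulators that protect the cell's own membranes from the effectors. Genes that IFN-γ induces often carry gamma-activated sites (GAS) or interferon-stimulated response elements (ISRE), and IRF1, itself induced by IFN-γ, binds the ISRE. CpG acts through MyD88 and NF-κB.

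Promoters of the GTPase genes are shown because genes that IFN-γ induces often carry GAS or ISRE. The sequences are RefSeq promoters of GRCm38.p6, an older build than that of the enhancers, and cover 250 bases before and 50 after the start of the gene on its own strand. Of 19 Gbp and Irg genes looked up, 12 matched, with 13 promoters. Both strands were searched for GAS (TTCNNNGAA), ISRE (GAAA, 2 bases of any kind, then GAAA) and an NF-κB motif (GGG, 2 bases of any kind, then TTTCC), and capitals mark the GAS and ISRE matches.
Gbp2: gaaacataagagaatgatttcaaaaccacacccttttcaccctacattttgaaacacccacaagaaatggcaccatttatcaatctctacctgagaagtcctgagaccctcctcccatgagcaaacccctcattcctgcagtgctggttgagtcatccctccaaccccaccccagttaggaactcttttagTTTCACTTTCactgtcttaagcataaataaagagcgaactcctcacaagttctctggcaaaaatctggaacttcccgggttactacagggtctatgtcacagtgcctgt
Irgm1: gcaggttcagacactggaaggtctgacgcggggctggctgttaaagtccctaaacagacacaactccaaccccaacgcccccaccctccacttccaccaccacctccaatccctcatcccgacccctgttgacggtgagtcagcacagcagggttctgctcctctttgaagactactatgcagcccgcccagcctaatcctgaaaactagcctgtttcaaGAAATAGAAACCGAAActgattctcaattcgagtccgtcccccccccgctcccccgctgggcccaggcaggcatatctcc
Igtp: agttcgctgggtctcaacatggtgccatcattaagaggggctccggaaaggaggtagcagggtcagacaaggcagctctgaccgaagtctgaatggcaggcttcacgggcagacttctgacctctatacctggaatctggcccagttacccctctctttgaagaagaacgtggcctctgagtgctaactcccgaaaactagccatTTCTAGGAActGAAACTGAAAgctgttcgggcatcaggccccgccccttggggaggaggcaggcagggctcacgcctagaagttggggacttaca
Gbp2 lies on chromosome 3 (plus strand), where this promoter is chr3:142620413-142620712 of GRCm38.p6. Irgm1 lies on the minus strand of chromosome 11 at chr11:48871371-48871670, and its 2 ISRE matches overlap. Igtp lies on the plus strand at chr11:58199306-58199605, with 1 GAS next to 1 ISRE. The ISRE was found in 11 of the 13 GTPase promoters, against 3.44% of all 32851 promoters of the same length. The GAS was found in 7 of the 13, against 8.3% of all promoters, and the NF-κB motif in 1, that of Gbp5, against 1.63%. These are matches of letters and not measured binding, and they come from genes, not from the enhancers counted here.

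The tags of the 30 enhancers came mostly from libraries with IFN-γ. Of their 742 tags, 325 (43.8%) were in the 6 libraries with IFN-γ alone and 333 (44.9%) in the 6 with both stimuli, against 68 (9.16%) in the 6 with CpG alone and 16 (2.16%) in the 2 unstimulated ones. Over all 11222 enhancers these shares were 26.6%, 34.0%, 28.9% and 10.5%. The 12 libraries with IFN-γ thus held 88.7% of the tags at these loci and 60.5% of the tags of all enhancers. In bulk samples fewer cells of a type and less RNA per cell cannot be told apart. In the plot of shares, the part with CpG alone is largest for a pair of neighbours on chromosome 18. That pair was singled out by these values, so that leaving it out had to raise the share of the 12 libraries, which was then 95.9%.

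**Figure D1:**
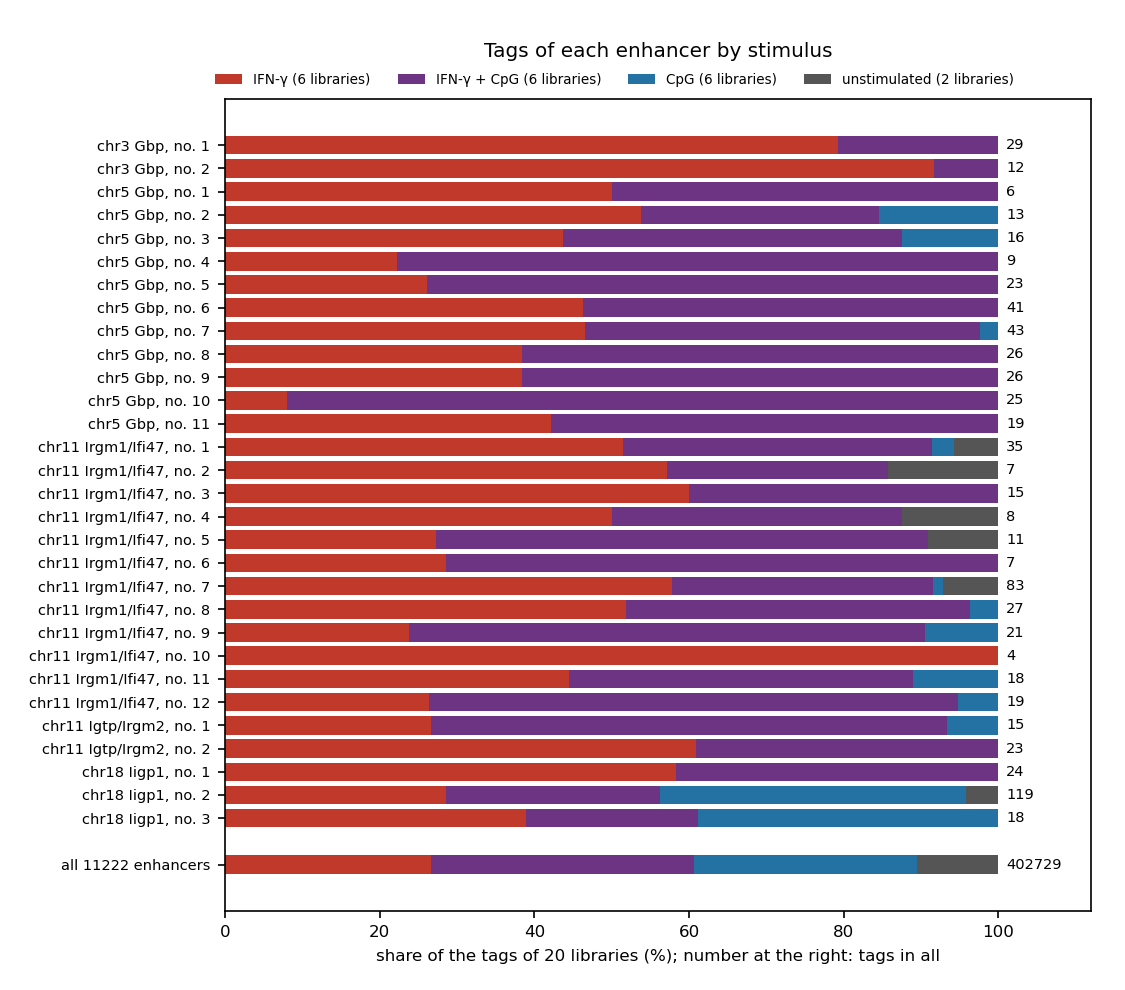
Share of each enhancer's tags by stimulus (horizontal axis, % of the tags of 20 libraries; number of tags at the right), for the 30 enhancers by window and for all 11222 enhancers. The 12 libraries with IFN-γ hold 88.7% of the tags of the 30 enhancers and 60.5% of the tags of all enhancers.

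Many of these enhancers were without a tag in cells that had not received IFN-γ. No tag was found in the 8 libraries without IFN-γ for 15 of the 30 (50.0%), against 7.42% of all enhancers. In unstimulated cells 24 of 30 (80.0%) had none, against 31.0% of all, and in the 6 CpG libraries 18 (60.0%) had none, against 10.2%. With IFN-γ alone every one of the 30 had a tag, while 10.3% of all enhancers had none. Counts were low in general: the median enhancer of the 5 windows had 19.0 tags over 20 libraries, against 21.0 for all enhancers, and the most in 1 library was 18. Their median width of 304.5 bases was near the 288 of all enhancers. A neighbour closer than 5 kb was found for 53.3% of them and for 56.4% of all enhancers.

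**Figure D2:**
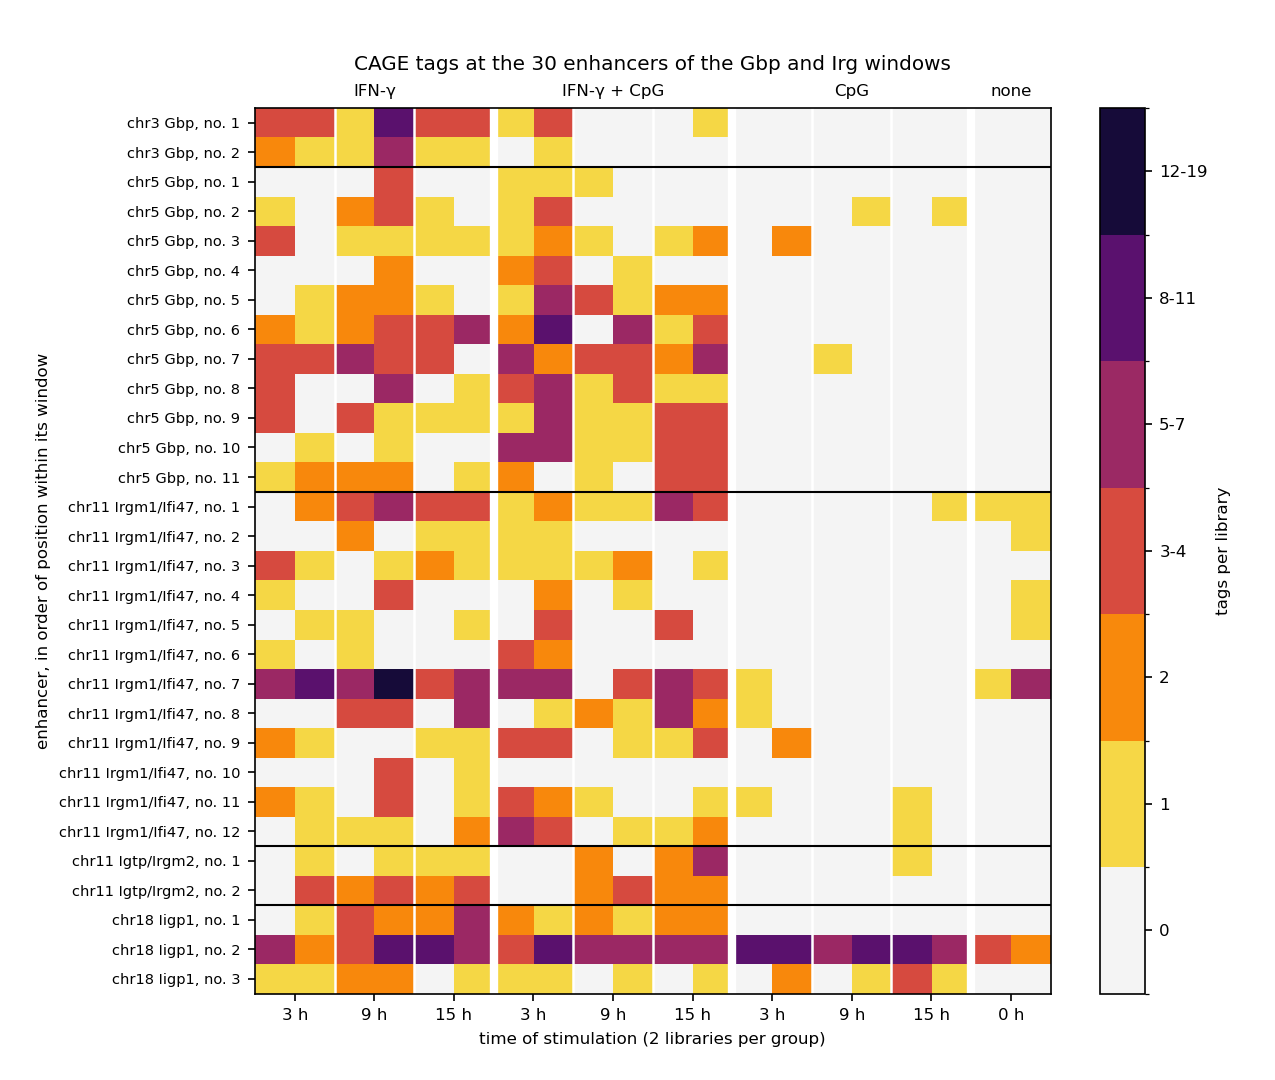
Tags in each library (colour, number of tags) for the 30 enhancers, numbered by position within each window, in libraries ordered by stimulus and time. With CpG alone and without stimulation most fields are empty, except for the second enhancer of the chromosome 18 window.

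Summed over the 30 enhancers, the level with IFN-γ alone was 3.09 ± 0.339, 5.29 ± 2.48 and 3.68 ± 0.823 RPM at 3, 9 and 15 h (mean ± SD, n = 2 per group). With both stimuli it was 5.67 ± 1.59, 2.50 ± 0.331 and 4.25 ± 0.489 RPM at 3, 9 and 15 h, and with CpG alone 0.983 ± 0.122, 0.669 ± 0.209 and 0.928 ± 0.427 RPM, against 0.590 ± 0.323 RPM in unstimulated cells. Each library with IFN-γ, alone or with CpG, held 30 to 97 tags at these loci, against 7 to 16 in each CpG library and 5 and 11 in the unstimulated ones, so that the libraries with and without IFN-γ did not overlap. The libraries themselves differed in how much enhancer transcription they held, 991 to 2202 RPM over all enhancers, highest in replicate 2 of both stimuli at 3 h. As a share of enhancer tags the 30 enhancers held 0.270%, 0.335% and 0.284% with IFN-γ alone at 3, 9 and 15 h and 0.296%, 0.185% and 0.230% with both stimuli. The shares were 0.0751%, 0.0420% and 0.0608% with CpG alone, against 0.0384% in unstimulated cells.

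Counted per enhancer against unstimulated cells, both libraries with IFN-γ alone lay above both unstimulated ones for 10, 17 and 13 of the 30 enhancers at 3, 9 and 15 h. The same held for 14.5%, 17.8% and 18.2% of all enhancers. For both stimuli it held for 20, 11 and 16 of the 30, against 24.1%, 21.8% and 26.0% of all enhancers. With CpG alone it held for 1, 1 and 2 of the 30, which is below the 14.9%, 19.5% and 20.0% of all enhancers. These comparisons share the unstimulated libraries. In the libraries with both stimuli 20 of the 29 enhancers with a single highest time had it at 3 h, 2 at 9 h and 7 at 15 h. With IFN-γ alone 6 of 30 had it at 3 h, 15 at 9 h and 9 at 15 h. Over all enhancers with a single highest time, 39%, 20.9% and 40.2% had it at 3, 9 and 15 h with both stimuli. With IFN-γ alone these shares were 32.9%, 37.1% and 30.1%. At 9 h with IFN-γ alone, replicate 2 held 97 tags at the 30 enhancers and replicate 1 held 49. The 15 enhancers highest at 9 h thus depend in part on 1 library.

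Tests were run with edgeR on the 2792 enhancers with enough tags, and 5 of the 30 were among them: chr5:105293056-105293334, chr5:105293470-105293961, chr11:48940973-48941268, chr11:48972682-48973109 and chr18:60632933-60633451. The other 25 had too few tags and are given by their counts. An enhancer passes the filter through the group where it is high, so that a higher level than in unstimulated or CpG-treated cells, where it has few or no tags, is partly set by the filter. A call needed a Benjamini-Hochberg p, adjusted over all 2792, of less than 0.05. Against unstimulated cells, 1 of the 5 was called higher with IFN-γ alone at 3 h (7.59% of all tested), 2 at 9 h (12.9%) and 1 at 15 h (10.1%). With both stimuli 2 were called higher at 3 h (18.4%), 1 at 9 h (14.1%) and 2 at 15 h (15.6%). With CpG alone edgeR called 0 of the 5 at each time (1.18%, 4.48% and 4.55% of all tested were called higher), with an unadjusted p under 0.05 for 1, 2 and 2 of them, and DESeq2 also called 0. None of the 5 was called lower in these 9 comparisons, in which falls were called for 2.9%, 6.59% and 4.94% of all tested with IFN-γ alone at 3, 9 and 15 h. The corresponding falls were 8.95%, 8.27% and 9.67% with both stimuli and 0.358%, 2.51% and 3.04% with CpG alone. Of the 5, 3 had no tag in unstimulated cells and could not fall. The lack of falls among the 5 was thus largely fixed in advance and is not a result.

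The window on chromosome 5, at Gbp4, Gbp6 and Gbp8, held 247 tags in 11 enhancers. It had 94 tags with IFN-γ alone and 148 with both stimuli, against 5 with CpG alone and none in unstimulated cells. Its summed level was 0.988 ± 0.527, 1.67 ± 0.52 and 0.828 ± 0.113 RPM with IFN-γ alone at 3, 9 and 15 h. With both stimuli it was 2.82 ± 1.13, 1.10 ± 0.0578 and 1.60 ± 0.384 RPM, and with CpG alone 0.0764 ± 0.108, 0.0744 ± 0.000177 and 0.0391 ± 0.0553 RPM. Every library with IFN-γ lay above every library without it.

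The enhancer chr5:105293470-105293961 had 4 and 3 tags with IFN-γ alone at 3 h, 5 and 4 at 9 h and 4 and 0 at 15 h. Both stimuli gave 6 and 2, 4 and 3, and 2 and 5 tags at these times, against 1 tag in all in the 6 CpG libraries and none in unstimulated cells. Apart from IFN-γ at 15 h, where 1 library had no tag, each group with IFN-γ lay above all libraries without it. With IFN-γ alone the level was at least 2.43-fold higher than in unstimulated cells at 3 h and at least 2.96-fold higher at 9 h, where a floor of 3 tags stands for the unstimulated pair (adjusted p = 0.0391 and 0.0206, edgeR). The bounds with both stimuli were at least 2.66-fold, 2.41-fold and 2.41-fold higher at 3, 9 and 15 h (adjusted p = 0.0286, 0.0279 and 0.0443, edgeR). On the same 2792 enhancers, none of these 5 calls held without either unstimulated library. The IFN-γ 3 h call and the 9 h call with both stimuli were also lost without either of their own libraries. The IFN-γ 9 h call was lost without its replicate 1, and the calls with both stimuli without replicate 1 at 3 h and replicate 2 at 15 h (edgeR adjusted p = 0.0677 to 0.232 where a call was lost). DESeq2 made none of them, and testing all enhancers without a filter lost all 5.

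Its neighbour chr5:105293056-105293334, which ends 136 bases before it, had 2 and 1 tags with IFN-γ alone at 3 h, 2 and 4 at 9 h and 4 and 6 at 15 h. Both stimuli gave 2 and 11, 0 and 5, and 1 and 3 tags, against none in any of the 6 CpG and 2 unstimulated libraries. The largest value, 11 tags, was in the library with the highest enhancer RPM. A rise of at least 3.42-fold was called with IFN-γ alone at 15 h (adjusted p = 0.0146, edgeR), and one of at least 4.31-fold with both stimuli at 3 h (adjusted p = 0.00704, edgeR). The first call was lost without IFN-γ 15 h replicate 2 and the second without replicate 2 of both stimuli at 3 h, and both were lost without either unstimulated library and with DESeq2. With 1 library left out and the same enhancers tested the adjusted p was 0.0342 to 0.117 for the first and 0.00428 to 0.228 for the second (edgeR).

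These neighbours belong to a group of 6 enhancers in a stretch of 11.1 kb, from chr5:105290979-105291120 to chr5:105301771-105302075. The 6 had 67 tags with IFN-γ alone and 116 with both stimuli, against 1 with CpG alone and 0 in unstimulated cells. The last of them, chr5:105301771-105302075, had 7 and 7 tags with both stimuli at 3 h, 1 and 1 at 9 h and 4 and 3 at 15 h. With IFN-γ alone it had 0 and 1, 0 and 1, and 0 and 0 tags, and it had none with CpG alone or in unstimulated cells, so that 23 tags with both stimuli stood against 2 with IFN-γ alone (ratio of RPM 11.5, 95% counting interval 2.85 to 101). This enhancer was not among the 5 tested and was chosen after its values were seen, so that the ratio is a description.

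The other 3 enhancers of the group had tags in libraries with IFN-γ and in no other. At chr5:105290979-105291120 IFN-γ alone gave 0 and 1, 2 and 2, and 1 and 0 tags at 3, 9 and 15 h, and both stimuli gave 1 and 7, 4 and 1, and 2 and 2. At chr5:105296029-105296259 the tags were 4 and 0, 0 and 5, and 0 and 1 with IFN-γ alone and 4 and 6, 1 and 3, and 1 and 1 with both stimuli. At chr5:105298688-105299101 they were 3 and 0, 4 and 1, and 1 and 1 with IFN-γ alone and 1 and 6, 1 and 1, and 3 and 4 with both stimuli. Every library with both stimuli thus had a tag at each of these 3, while some libraries with IFN-γ alone had none. In the same group chr5:105293056-105293334 went the other way, with tags in 6 libraries with IFN-γ alone and 5 with both stimuli. Over all enhancers the libraries with both stimuli held 136834 tags and those with IFN-γ alone 106998. The 5 enhancers of the window outside the group had 6 to 19 tags each. Of these, chr5:105440004-105440185, at the far end and chosen after its values were seen, had 8 tags with IFN-γ alone and 11 with both stimuli, and none without IFN-γ.

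**Figure D3:**
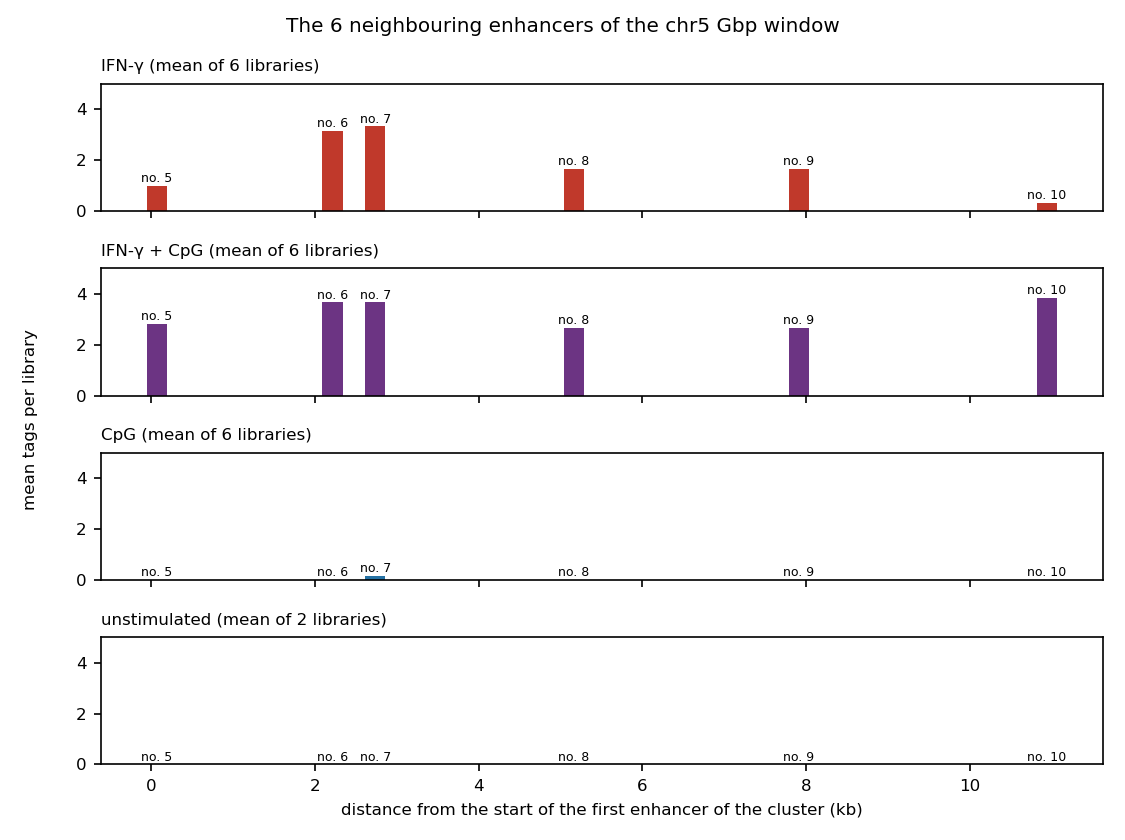
Mean tags per library (vertical axis) at the 6 neighbouring enhancers of the chromosome 5 window by stimulus, placed by distance from the start of the first one (horizontal axis, kb). Bars mark the place of an enhancer and not its width. The last enhancer had 23 tags with both stimuli and 2 with IFN-γ alone.

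The first window on chromosome 11, at Irgm1 and Ifi47, held 255 tags in 12 enhancers. It had 124 tags with IFN-γ alone and 112 with both stimuli, against 8 with CpG alone and 11 in unstimulated cells. Here some enhancers had tags before stimulation: 5 of the 12 had at least 1 tag in an unstimulated library. The summed level was 1.18 ± 0.0688, 2.07 ± 1.08 and 1.35 ± 0.735 RPM with IFN-γ alone at 3, 9 and 15 h, and 2.01 ± 0.0847, 0.608 ± 0.324 and 1.55 ± 0.207 RPM with both stimuli. It was 0.188 ± 0.0505, 0 and 0.116 ± 0.0533 RPM with CpG alone, against 0.407 ± 0.371 RPM in unstimulated cells. The 6 CpG libraries held 0 to 3 tags each, and the unstimulated ones 2 and 9.

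The most tags in this window, 83, were at chr11:48940973-48941268. It had 5 and 9 tags with IFN-γ alone at 3 h, 7 and 18 at 9 h and 3 and 6 at 15 h, and 7 and 6, 0 and 4, and 7 and 4 with both stimuli. With CpG alone it had 1 and 0 at 3 h and none at 9 and 15 h, against 1 and 5 tags in unstimulated cells. The libraries with IFN-γ alone lay above all CpG libraries. At 3 h the lower of them equalled the higher unstimulated library at 5 tags, and at 15 h the pairs overlapped. At 9 h it was higher with IFN-γ than in unstimulated cells by 2.12 ± 0.69 on the log2 scale (SE; edgeR adjusted p = 0.0168). The difference was 1.53 without IFN-γ 9 h replicate 2, which holds the 18 tags, 1.36 without unstimulated replicate 1 and 3.63 without unstimulated replicate 2, and the call was lost in the first and second of these (edgeR adjusted p = 0.31 and 0.261). It was also lost with DESeq2, without a filter and, at an adjusted p of 0.0505, with limma at a pseudocount of 0.1. With CpG alone the ratio to unstimulated cells was 0.0574 over all times (1 tag against 6, 95% counting interval 0.00125 to 0.473), and no fall was called at any time (edgeR adjusted p = 0.0932 at 9 h and 0.108 at 15 h).

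In the same window, chr11:48972682-48973109 had no tag with IFN-γ alone at 3 h, 3 and 4 tags at 9 h and 0 and 7 at 15 h. Both stimuli gave 0 and 1, 2 and 1, and 6 and 2 tags, against 1 tag in the 6 CpG libraries and none in unstimulated cells. Its tags thus lay mostly in the 9 and 15 h libraries. With both stimuli at 15 h it was called at least 2.76-fold higher than in unstimulated cells (edgeR adjusted p = 0.0495). With the replicate number as a block the call was lost, as it was with DESeq2, without a filter, without either unstimulated library and without replicate 1 of both stimuli at 15 h (edgeR adjusted p = 0.175 to 0.263 with a library left out). It held without replicate 2 (edgeR adjusted p = 0.0363). The change between 15 and 3 h with IFN-γ alone was not called (7 tags against 0, edgeR adjusted p = 0.289).

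The other 10 enhancers of this window had 4 to 35 tags each. The one with 35, chr11:48678693-48678920, had 0 and 2, 3 and 5, and 4 and 4 tags with IFN-γ alone at 3, 9 and 15 h and 1 and 2, 1 and 1, and 5 and 4 with both stimuli. It had 1 tag in the 6 CpG libraries, against 1 and 1 in unstimulated cells, so that at 9 and 15 h both libraries with IFN-γ alone lay above all libraries without IFN-γ. The enhancer chr11:48940605-48940783, which ends 190 bases before the most tagged one, had 7 tags, all with IFN-γ, of which 5 were with both stimuli at 3 h.

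The window on chromosome 3, at Gbp2, Gbp3, Gbp5 and Gbp7, held 2 enhancers, both without a tag in CpG-treated or unstimulated cells. At chr3:142282870-142283436 there were 3 and 3 tags with IFN-γ alone at 3 h, 1 and 8 at 9 h and 4 and 4 at 15 h. There were 1 and 4 tags with both stimuli at 3 h, 0 and 0 at 9 h and 0 and 1 at 15 h. All 6 libraries with IFN-γ alone had a tag, and 3 of the 4 libraries with both stimuli at 9 and 15 h had none. The neighbour chr3:142296181-142296709 had 2 and 1, 1 and 5, and 1 and 1 tags with IFN-γ alone, and a single tag, at 3 h, in the 6 libraries with both stimuli. Together the window had 7 tags with both stimuli and 34 with IFN-γ alone.

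At 9 and 15 h together chr3:142282870-142283436 had 1 tag with both stimuli and 17 with IFN-γ alone, a ratio of RPM of 0.0605 (95% counting interval 0.00145 to 0.386). Of the 17 tags, 8 were in IFN-γ 9 h replicate 2. Putting 9 and 15 h together was not among the planned comparisons, so that this ratio is a description. At 3 h the ratio was 0.798 (5 tags against 6, interval 0.193 to 3.14). It was not among the 5 tested. In a test of all 11222 enhancers both stimuli gave a lower level than IFN-γ alone over the 3 times, by a fitted log2 difference of -2.98 ± 0.87 (SE; edgeR adjusted p = 0.0217, against 1.36% of all called lower). Among the 7520 with at least 15 tags the adjusted p was 0.0145 (edgeR, 2.85% called lower). The enhancer reached that filter through the libraries with IFN-γ alone, with 23 of its 29 tags, so that this call is partly set by the filter. With the times pooled the difference of -2.04 ± 0.73 was not called (edgeR adjusted p = 0.0611).

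**Figure D4:**
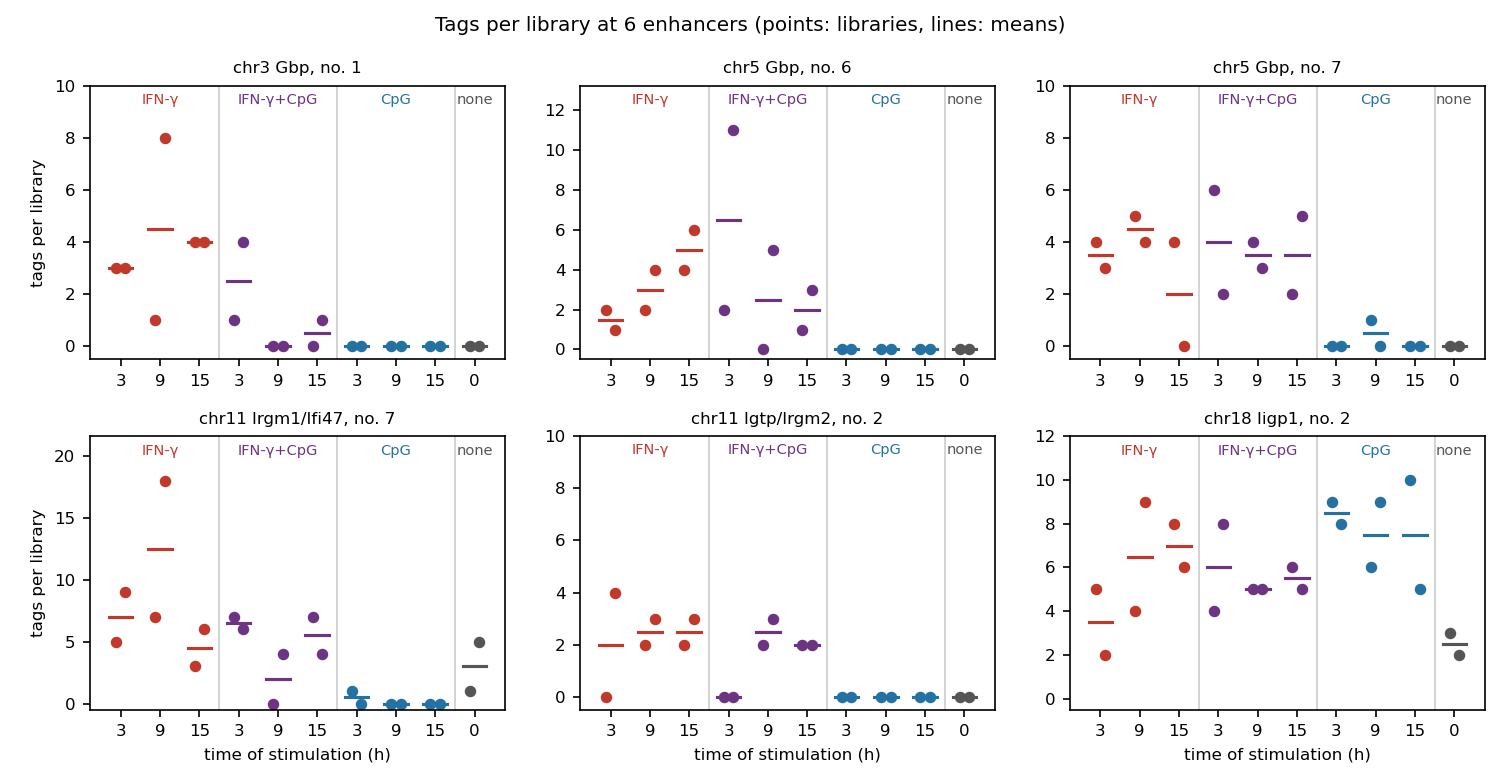
Tags per library (vertical axis) at 6 enhancers by stimulus and time (horizontal axis, h), with points for libraries and bars for the mean of each pair. The chromosome 3 enhancer has 17 tags with IFN-γ alone at 9 and 15 h and 1 with both stimuli. At 3 h it has 3 and 3 tags with IFN-γ alone and 1 and 4 with both stimuli. The chromosome 18 enhancer is the only 1 of the 6 with tags in every CpG library.

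The second window on chromosome 11, at Igtp and Irgm2, held 2 enhancers with 38 tags, of which 18 were with IFN-γ alone and 19 with both stimuli, against 1 with CpG alone and 0 in unstimulated cells. At chr11:58084268-58084613 there were 0 and 4 tags with IFN-γ alone at 3 h, 2 and 3 at 9 h and 2 and 3 at 15 h. With both stimuli it had 0 and 0, 2 and 3, and 2 and 2 tags, and none with CpG alone or in unstimulated cells. Its neighbour chr11:58076129-58076516 had 0 and 0, 2 and 0, and 2 and 6 tags with both stimuli and 4 tags in all with IFN-γ alone. The window as a whole was without a tag at 3 h with both stimuli, the time at which the chromosome 5 window was highest with them.

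On chromosome 18, at Iigp1, the 3 enhancers did not share 1 pattern. The enhancer chr18:60489211-60489483 had 0 and 1 tags with IFN-γ alone at 3 h, 3 and 2 at 9 h and 2 and 6 at 15 h. With both stimuli it had 2 and 1, 2 and 1, and 2 and 2 tags, and it had none with CpG alone or in unstimulated cells. Further along the window, chr18:60632933-60633451 had 5 and 2, 4 and 9, and 8 and 6 tags with IFN-γ alone and 4 and 8, 5 and 5, and 6 and 5 with both stimuli. It had 9 and 8, 6 and 9, and 10 and 5 tags with CpG alone, against 3 and 2 in unstimulated cells. Every CpG library was above both unstimulated ones, by a ratio of RPM of 3.24 over the 3 times (95% counting interval 1.29 to 10.4), but no time was called (edgeR adjusted p = 0.138, 0.188 and 0.163 at 3, 9 and 15 h). Every library with both stimuli also lay above both unstimulated ones. By time, both CpG libraries lay above both unstimulated ones for 14.9%, 19.5% and 20.0% of all enhancers at 3, 9 and 15 h. When only the compared groups were fitted, CpG at 3 h was called higher (adjusted p = 0.0419, edgeR), as was IFN-γ at 15 h (0.0352). The third, chr18:60633577-60634090, lies 126 bases from it and had 7 tags with IFN-γ alone, 4 with both stimuli and 7 with CpG alone, against 0 in unstimulated cells.

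Between stimuli at the same times, time in culture was equal, and the enhancers were compared over 3, 9 and 15 h. The comparisons of both stimuli with CpG and of IFN-γ with CpG share the CpG libraries. Both stimuli gave a higher level than CpG alone at 3 of the 5 tested enhancers (17.9% of all tested were called higher), and IFN-γ alone gave a higher level than CpG alone at the same 3 (22.0%). None of the 5 was lower in either comparison (12.1% and 20.6% of all tested were). All but chr18:60632933-60633451 had 0 or 1 tag in the 6 CpG libraries, so that a lower level could hardly be called for them. At chr11:48940973-48941268 28 tags with both stimuli stood against 1 with CpG (log2 difference 4.21 ± 0.91, SE, edgeR adjusted p = 7.5e-05), and 48 with IFN-γ against 1 (5.24 ± 0.79, edgeR adjusted p = 1.19e-09). At chr5:105293470-105293961 there were 22 tags with both stimuli and 20 with IFN-γ, against 1 with CpG (4.10 ± 1.01 and 4.13, edgeR adjusted p = 0.00056 and 0.000438). At chr5:105293056-105293334 22 tags with both stimuli and 19 with IFN-γ stood against 0 with CpG, which makes both stimuli at least 7.25-fold higher and IFN-γ at least 6.23-fold higher (adjusted p = 0.000561 and 0.000353, edgeR). DESeq2 made all 6 of these calls.

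Of the 6 calls, 2 with both stimuli were lost without replicate 2 of both stimuli at 9 h, those of chr11:48940973-48941268 and chr5:105293056-105293334, and that of chr5:105293470-105293961 with IFN-γ was lost without IFN-γ 15 h replicate 1. In each case the library left in that group had no tag, which leaves the averaged comparison without a usable p (edgeR adjusted p = 1.0). With the times pooled all 6 were called (edgeR adjusted p = 8.51e-09 to 0.00171; 17.8% of all tested were higher with both stimuli and 21.1% with IFN-γ), together with chr11:48972682-48973109 for IFN-γ against CpG (edgeR adjusted p = 0.0152). Among all 30, tested without a filter, 8 were higher with both stimuli than with CpG (5.13% of all 11222) and 9 with IFN-γ than with CpG (7.03%). The counts that follow are for the 21 enhancers of the windows with at least 15 tags, which most of them reached through libraries with IFN-γ, so that these counts describe the 21 and support nothing further. Pooling the times gave 13 higher with both stimuli than with CpG (11.6% of the 7520 enhancers with at least 15 tags) and 13 higher with IFN-γ than with CpG (13.1%). None of these 21 was lower in either comparison (4.14% and 11.8% of all were). Apart from the pair on chromosome 18, they had at most 2 tags in the 6 CpG libraries, which left little room for a lower level. By time, the counts among the 21 were 9 with both stimuli (8.91%) and 9 with IFN-γ (11.8%). A time without a tag on either side can leave this averaged comparison without a usable p. An enhancer not called by time may therefore still differ. Over all 30, every library with both stimuli lay above every CpG library for 6 (2.21% of all enhancers), and every IFN-γ library for 4 (2.63%).

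Both stimuli against IFN-γ alone gave no call among the 5 tested (12.4% of all tested were called higher and 9.03% lower), with 1 of the 5 at an unadjusted p under 0.05, and DESeq2 also called 0. With pooled times and at least 15 tags 1 of 21 was called higher, chr5:105301771-105302075 (5.36% of the 7520), which had passed that filter through the libraries with both stimuli. The 1 of the 5 was chr11:48940973-48941268, with 28 tags with both stimuli and 48 with IFN-γ (log2 difference -1.03 ± 0.43, SE, edgeR adjusted p = 0.0707). Some fits with 1 library left out called it lower. In these the log2 difference was -1.22 without IFN-γ 3 h replicate 1 and -1.23 without replicate 1 of both stimuli at 15 h. It was -2.45 without replicate 2 of both stimuli at 9 h, where the library left in that group had no tag. By time the ratio of RPM was 0.889 at 3 h (95% counting interval 0.385 to 2.04), 0.168 at 9 h (0.0424 to 0.486) and 1.23 at 15 h (0.464 to 3.36). Without IFN-γ 9 h replicate 2 the ratio at 9 h was 0.301. At chr5:105293470-105293961 the log2 difference was -0.03 ± 0.62, an interval wide enough to hold a change of 2-fold either way. Of all 30 enhancers, 15 had a higher mean RPM with both stimuli than with IFN-γ and 15 a lower one, against 62.3% and 36.8% of all enhancers. A departure from additive log2 responses was called for 0 of the 5 tested (edgeR, 0.0716% of all tested were called higher and 0.0% lower). An unadjusted p under 0.05 was found for 2, and for 3 of the 5 the fit gave no usable p for want of tags.

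Between 15 and 3 h edgeR called 0 of the 5 for each stimulus. Of all tested enhancers, 1.04% were called with IFN-γ, 9.28% with both stimuli and 0.645% with CpG. An unadjusted p under 0.05 was found for 1 of the 5 with IFN-γ, 0 with both stimuli and 0 with CpG. In the plot of windows over time, both libraries with both stimuli at 9 h lay below both at 3 h in the window on chromosome 5 and in the first on chromosome 11. On chromosome 5 the 3 h libraries with both stimuli had 28 and 49 tags and the 9 h ones 14 and 15. In the first window on chromosome 11 they had 27 and 28 tags at 3 h and 5 and 11 at 9 h. The chromosome 3 window had 1 and 5 tags at 3 h and 0 and 0 at 9 h. In the second chromosome 11 window they had 0 and 0 tags at 3 h and 4 and 3 at 9 h. The chromosome 18 window had 7 and 10 tags at 3 h and 7 and 7 at 9 h. Over all enhancers these libraries held 1608.9 and 2201.8 RPM at 3 h and 1393 and 1325.4 RPM at 9 h. With IFN-γ alone the chromosome 5 window had 18 and 8 tags at 3 h and 18 and 28 at 9 h. The first chromosome 11 window held 15 and 16 tags with IFN-γ alone at 3 h, and 18 and 39 tags with it at 9 h. These differences between times at window level were described and not tested.

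**Figure D5:**
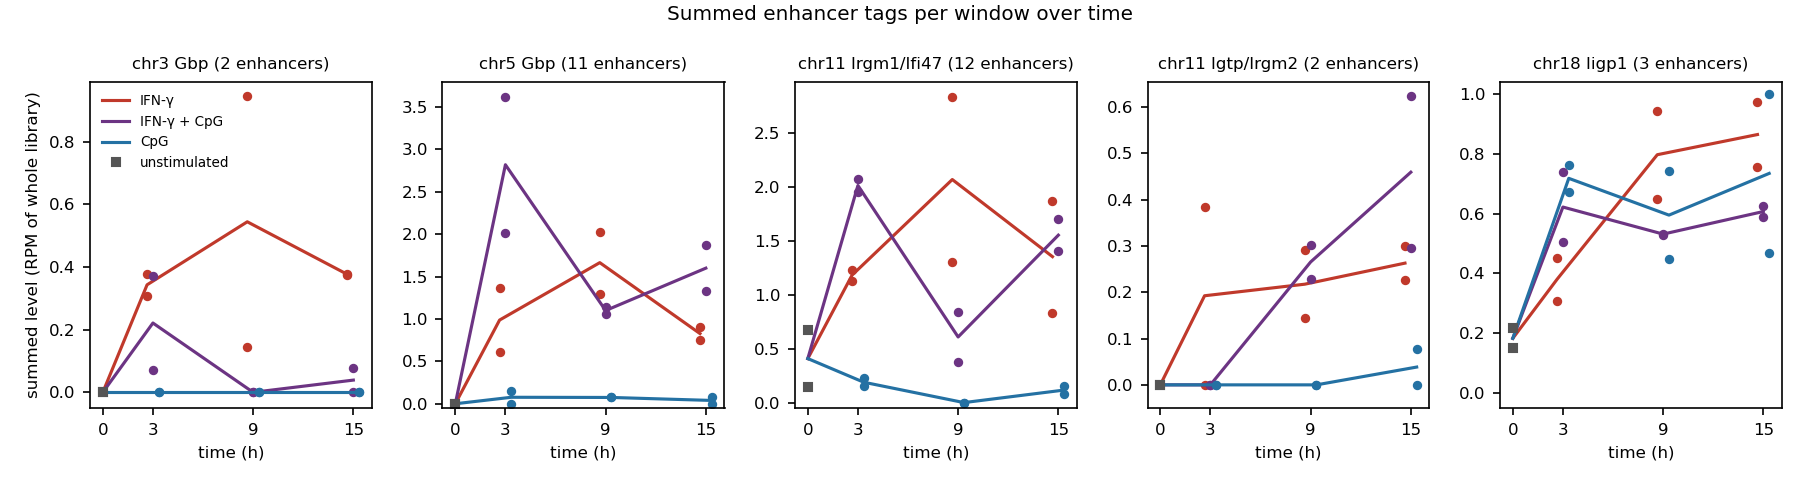
Summed level of each window (vertical axis, RPM of the whole library) over time (horizontal axis, h) for IFN-γ alone, both stimuli and CpG alone, with unstimulated cells at 0 h; points are libraries and lines join means. With both stimuli the chromosome 5 window stands at 2.82, 1.10 and 1.60 RPM at 3, 9 and 15 h.

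The nearest enhancers outside the windows lay 6.05 kb to 2250 kb from an edge, so that only 1 of these 10 was close to its window. Below the chromosome 18 window by 6.05 kb, chr18:60343729-60344164 had 5 tags with IFN-γ alone and 7 with both stimuli, and none with CpG alone or in unstimulated cells. The nearest enhancer inside that edge lay 139 kb from it: chr18:60489211-60489483 had 14 tags with IFN-γ alone and 10 with both stimuli, and likewise none otherwise. Above the first chromosome 11 window by 129 kb, chr11:49128479-49128711 had 3 and 6 tags with IFN-γ and both stimuli and none otherwise. The other 8, which lay 50.3 kb or more from an edge, each had at least 2 tags without IFN-γ. Windows wider by 50 kb on each side would hold 32 enhancers.

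Elsewhere in the genome, the 5 tested enhancers whose level followed the sum of the 5 tested GTPase enhancers most closely were ranked by Pearson's r over the 10 group means of log2(RPM + 0.5). They were chr7:106251066-106251526 (r = 0.977), chr15:74922495-74923036 (0.972), chr14:75183965-75184195 (0.966), chr3:121164067-121164375 (0.958) and chr16:17227585-17227766 (0.956). The closest, chr7:106251066-106251526, averaged 0.267, 0.978 and 0.601 RPM with IFN-γ alone at 3, 9 and 15 h and 0.588, 0.266 and 0.531 RPM with both stimuli. With CpG alone it averaged 0, 0.0371 and 0 RPM, against 0 in unstimulated cells. These likenesses share libraries and depth with the GTPase enhancers and are a description.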

How the data were processed

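The members and lists were chosen with earlier results of these data known. Per the submitters' processing notes, reads went through Trimmomatic 0.38, HISAT2 2.1.0, BWA 0.7.10 and FastQC 0.11.5, in roles that are not stated, with mm39 as the build. The enhancer calling method is not given in the sources used here. Deposited were 2 tables. The raw one the authors filled with tag counts, and in the other the deposited values are RPM, scaled by library totals. Whole tags were recovered from the RPM for 100% of values within 0.01 and equalled the raw counts, so that edgeR on them gave the calls of the main test.

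The test was edgeR's quasi-likelihood F-test (version 4.0.16, robust, two-sided, TMM on the tested enhancers; R 4.3.3), fitted on all 20 libraries by group with 10 residual degrees of freedom. filterByExpr (minimum count 5, minimum total 15) left 2792 enhancers. The 16 comparisons were each stimulus and time against unstimulated cells, pairs of stimuli averaged over times, 15 against 3 h, and additivity. The SE is the log2 change divided by the root of F. Named members are those called plus the one with the highest mean RPM in each window, and others belong to windows or groups given in full or were chosen after their values were seen. The fit was tested on simulated data. Ratios are of group RPM with exact 95% intervals, and a group at 0 is set to a floor of 3 tags over the group. Both cover counting error only. Alternatives were RLE factors, whole-library totals, DESeq2 1.42.0, other filters, a replicate block, compared groups alone, limma 3.58.1 on log2(RPM + 0.5, 0.1 or 2), pooled times, and leaving out each library, on the same 2792 enhancers and with the filter run again. Same-numbered replicates did not deviate together (correlations -0.0513 to 0.0381 over 45 pairs of groups), so that numbers were not taken as pairs. Positions are as deposited. Pathway genes at other loci and enhancer sequences were not analysed here, since the genome and annotation at hand are GRCm38.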

Additional observations from a re-analysis of the deposited data

Results flagged for a closer look

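At chr11:48940973-48941268 the libraries of the single stimuli lay on opposite sides of the unstimulated ones at 9 h: the mean was 0.906 RPM with IFN-γ and 0 RPM with CpG (listed as 0.0), against 0.222 RPM in unstimulated cells. Both libraries with IFN-γ lay above both unstimulated ones and both libraries with CpG below them. The lower level with CpG was not called (edgeR adjusted p = 0.0932), and the unstimulated libraries had 1 and 5 tags. The difference between the directions was not tested at 9 h alone. Over all times IFN-γ was higher than CpG by 5.24 ± 0.79 on the log2 scale (SE; edgeR adjusted p = 1.19e-09), and 0.906 RPM includes the library with 18 tags, which also had the third-highest enhancer RPM.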

How the results depend on the processing

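The 6 calls of both stimuli or IFN-γ against CpG held in every other setting run in which the enhancer was tested, apart from single libraries left out as given above. The 9 calls against unstimulated cells did not. DESeq2 made 0 of them. Without a filter IFN-γ had 0, 0 and 0 calls at 3, 9 and 15 h, and both stimuli 2, 0 and 0. Of the 2, chr5:105293056-105293334 was a main call and chr5:105301771-105302075 had not been in the main test. With the stricter filter (minimum count 10, minimum total 30) IFN-γ had 0, 1 and 0 and both stimuli 0, 0 and 0, since it leaves fewer members tested. The IFN-γ 3 h count was 0 with whole-library totals, with limma at a pseudocount of 0.5 or 2, and with a filter on the total alone. For both stimuli at 9 h it was 0, and at 15 h 1, with limma at 0.5 or 2, while the filter on the total alone gave 0 at each. At 3 h limma at 2 gave 1. Fits of the compared groups alone gave 1 for IFN-γ at 9 h, 0 for both stimuli at 3, 9 and 15 h and 1 for CpG at 3 h, which was chr18:60632933-60633451. For IFN-γ these fits called chr11:48940973-48941268 at 3 h and chr18:60632933-60633451 at 15 h, in place of the main calls. With the replicate number as a block, which does not pair the samples here, both stimuli at 15 h gave 1, and no other count changed. Both stimuli against CpG gave 8 without a filter, 9 on the total alone, 13 with times pooled as well, and 1 with the stricter filter. IFN-γ against CpG gave 9, 9, 13 and 1, and 1 for the compared groups alone. Both stimuli against IFN-γ gave 1 without a filter and 1 on the total alone, both times the lower level of chr3:142282870-142283436, and 1 with times pooled as well, the higher level of chr5:105301771-105302075. The cause of these differences was not tested.

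With 1 library left out and the same enhancers tested, IFN-γ at its 3 times gave 0 to 0, 0 to 1 and 0 to 2 calls, and both stimuli 0 to 1 at each time. Against CpG there were 1 to 3 with both stimuli and 2 to 3 with IFN-γ, and 0 to 1 for both stimuli against IFN-γ. When the filter was run again without the library it kept 4098 to 4238 enhancers, since a group then holds 1 library, so that both the library and the tested set changed. These fits gave 0 to 0, 0 to 2 and 0 to 1 with IFN-γ, 0 to 2, 0 to 1 and 0 to 0 with both stimuli, 3 to 5 and 4 to 6 against CpG, and 0 to 2 between both stimuli and IFN-γ. Other comparisons gave 0. A lone library is assumed to vary like the other groups. Of 169 settings of the 15 calls, 137 kept the call, as did 77 of 108 with 1 library left out on the same enhancers and 74 of 108 with the filter run again, and 0 reversed. The 169 include for each call the fit on recovered counts, which equal the raw counts and so could not lose it. The tested members alone summed to 1.18, 2.17 and 1.65 RPM with IFN-γ at 3, 9 and 15 h, 1.72, 1.10 and 1.55 with both stimuli, and 0.716 with CpG at 3 h. Settings on a total filter or pooled times, on recovered counts, and on the same enhancers with a library left out were chosen after seeing the data. Depth limits the analysis: 25 of 30 members were not tested, and 0 tags in the unstimulated pair allow up to 0.11 RPM.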
